A study of Mus musculus with 4 samples.

Results

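The 9 mature arms of the miR-125, miR-99 and miR-100 family were followed in small RNA sequencing of C2C12 myotubes, out of 869 miRNAs found in any sample. They were picked by exact name and comprise the guides miR-125a-5p, miR-125b-5p, miR-99a-5p, miR-99b-5p and miR-100-5p and the passengers miR-125a-3p, miR-99b-3p, miR-125b-1-3p and miR-125b-2-3p. C2C12 is a mouse skeletal myoblast line that forms multinucleated myotubes once serum is lowered, and its strain background is listed here as 129/Rej. All samples were taken on day 6 of differentiation in high-glucose medium with 2% horse serum, either without guanidinoacetic acid (NC, 2 samples) or with 20 mM of this creatine precursor (GAA, 2 samples). The labels do not say whether the 2 samples of a group came from separate cultures, so the spread between them may be technical. Every sample came from 1 cell line, which limits it as a model of muscle tissue.

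A miRNA hairpin is cut into a duplex of 2 strands, of which the guide is loaded into Argonaute and the passenger is mostly degraded. The guide finds its targets mainly through its seed, bases 2 to 8 from the 5′ end. miR-125 is the vertebrate relative of the worm developmental timing miRNA lin-4, and it is encoded beside let-7 and a miR-99 or miR-100 hairpin in conserved clusters. In muscle, miR-125b is known as a repressor of insulin-like growth factor II during myoblast differentiation, and miR-99 and miR-100 are known to repress mTOR, a kinase that drives muscle growth.

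The guides fell into a pair of seed families. Their mature sequences are shown 5′ to 3′ with the seed in capitals because the seed defines which arms can act on the same targets.
miR-125a-5p: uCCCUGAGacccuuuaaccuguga
miR-125b-5p: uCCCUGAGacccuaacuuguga
miR-99a-5p: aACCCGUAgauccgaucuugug
miR-99b-5p: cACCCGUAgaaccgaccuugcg
miR-100-5p: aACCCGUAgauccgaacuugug
All 9 arms were matched by name in RefSeq (GRCm38.p6). The sequences of miR-99a-5p and miR-100-5p differed by 1 substitution, U16A, counted from the 5′ end with the base of miR-99a-5p first. Both differed from miR-99b-5p by 4 substitutions. miR-125a-5p is 24 bases long and miR-125b-5p 22, with the first 13 bases identical. How reads that fit several of these guides were divided is not given in the sources used here, so the split between miR-99a-5p and miR-100-5p is uncertain.

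The passengers are shown in the same way, since each marks 1 hairpin and none of the 4 shares its seed with another of them.
miR-125a-3p: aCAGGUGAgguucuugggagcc
miR-99b-3p: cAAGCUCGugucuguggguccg
miR-125b-1-3p: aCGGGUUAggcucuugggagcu
miR-125b-2-3p: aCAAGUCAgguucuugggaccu
The miR-125b passengers differed at 5 of 22 positions, so reads of the hairpins Mir125b-1 and Mir125b-2 can be told apart by the passenger although their guides are identical. The Mir125a hairpin and the Mir125b-1 hairpin are printed with both arms in capitals to show how the guide on the 5′ side faces the passenger on the 3′ side.
Mir125a, chr17:17830812-17830879, plus strand: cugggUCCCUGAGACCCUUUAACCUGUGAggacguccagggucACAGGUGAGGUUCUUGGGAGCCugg
Mir125b-1, chr9:41581926-41582002, plus strand: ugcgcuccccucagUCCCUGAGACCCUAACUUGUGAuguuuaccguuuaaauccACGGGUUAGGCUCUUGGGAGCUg

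The arms came from 3 clusters, placed on GRCm38 with the GENCODE M21 annotation. On chromosome 17, Mir99b (17830188 to 17830257), Mirlet7e and Mir125a lie within 692 bases on the plus strand of Spaca6. Mir99b is in an intron of this protein-coding gene, and Mir125a overlaps an exon of at least 1 of its annotated transcripts. On chromosome 9, Mir100 (41531425 to 41531504), Mirlet7a-2 and Mir125b-1 are spread over 50578 bases in introns of the noncoding gene 3110039I08Rik, which RefSeq calls Mir100hg. Mir125b-1 also lies in an exon of the small noncoding gene Gm28119, and Mir100 overlaps an exon of Gm48742 on the opposite strand. On chromosome 16, Mir99a (77598936 to 77599000), Mirlet7c-1 and Mir125b-2 (77646273 to 77646343) span 47408 bases in introns of Mir99ahg. The end of Mir125b-2 also overlaps an exon of C130023A14Rik on the same strand. Mir99a and Mirlet7c-1 also lie in an intron of the protein-coding gene Gm11146 on the opposite strand.

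The deposited values were log2(RPM + 1), where RPM (the usual scaling of read numbers) takes the mappable reads of the sample as its total. The mappable reads ranged from 4732359 to 5657704, and 1 read was worth 0.177 to 0.211 RPM. Known miRNAs took 33.58% (NC-1), 43.65% (NC-2), 56.31% (GAA-1) and 50.39% (GAA-2) of the mappable reads. Values are therefore given both in RPM and as a share of the summed miRNA RPM. The myotube markers (miR-1a-3p, miR-133a-3p, miR-133b-3p, miR-206-3p, miR-208b-3p and miR-499-5p) had reads for 6 of 6 in every sample and summed to 5630 and 7100 RPM in NC and to 4518 and 4894 RPM in GAA. The list for other cell types had reads for 4 of 6 in each NC sample and for at least 5 of 6 in each GAA sample, with sums of 36.14 to 49.45 RPM in NC and 57.09 to 80.66 RPM in GAA. Most of these sums came from neural miR-9-5p, at 27.82 and 41.21 RPM in NC and 59.46 and 42.95 RPM in GAA. By share miR-9-5p overlapped between the groups, at 0.00828% and 0.00944% in NC and 0.0106% and 0.00852% in GAA. miR-142a-5p of blood cells had 30 to 94 reads in every sample and stood at 6.092 and 7.185 RPM in NC and 16.89 and 13.43 RPM in GAA, without overlap. Its shares, 0.00181% and 0.00165% in NC and 0.00300% and 0.00267% in GAA, did not overlap either. Liver miR-122-5p had 0 reads in both NC samples, 17 in GAA-1 and 2 in GAA-2, and miR-223-3p of white blood cells had 1 read in GAA-1 and 0 in the other samples. In contrast, miR-451a of the same list was lower in GAA, at 0.7186 and 0.1768 RPM against 2.031 and 0.8452 RPM in NC. Its groups did not overlap either, but it had only 1 to 10 reads a sample. The remaining marker of this list, miR-124-3p, had 1 or 2 reads a sample. In bulk RNA, fewer cells of a type and less RNA per cell cannot be told apart. The part of these shifts in the results was not tested.

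The family was among the more abundant of the profile. All 9 arms had at least 10 reads in every sample, so the filter on low values removed none. Their summed level was 10748 (NC-1), 9253 (NC-2), 22002 (GAA-1) and 16023 (GAA-2) RPM. This was 3.20% and 2.12% of the miRNA RPM in NC and 3.91% and 3.18% in GAA. The GAA sums lay above both NC sums in RPM, but the shares overlapped, because GAA-2 was below NC-1. By mean RPM, miR-99b-5p ranked 13 of the 869 miRNAs, miR-125a-5p 18, miR-125b-5p 25, miR-100-5p 78, miR-125b-1-3p 88, miR-125b-2-3p 109, miR-99a-5p 117, miR-99b-3p 173 and miR-125a-3p 221.

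**Figure D1:**
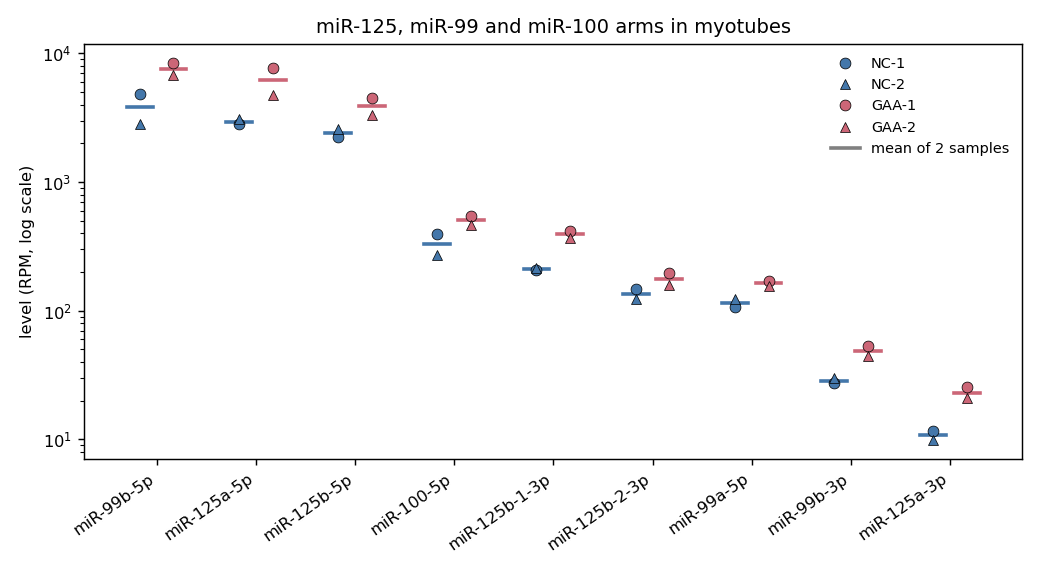
Level of the 9 arms in RPM on a log axis, with 1 point per sample (circles for replicate 1, triangles for replicate 2; NC in blue, GAA in red) and a bar at the mean of each group of 2. The GAA points sit above the NC points for every arm, and the 3 guides miR-99b-5p, miR-125a-5p and miR-125b-5p lie at 2223 RPM or more in all samples, while no other arm exceeds 542.9 RPM.

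The guides of the chromosome 17 cluster had the highest levels. miR-125a-5p, a guide of the lin-4 seed type, stood at 2809 (NC-1), 3065 (NC-2), 7657 (GAA-1) and 4738 (GAA-2) RPM, from 13836, 14507, 42622 and 26807 reads. Both GAA samples were above both NC samples, although the GAA samples themselves were far apart, at 6198 ± 2064 RPM (SD, n = 2) against 2937 ± 181 RPM (SD, n = 2) in NC. On log2(RPM + 1), GAA minus NC gave a log2 fold change of 1.04 (SE 0.29, limma, adjusted p = 0.231). As a share of miRNA RPM it was 0.837% (95% Wilson interval 0.823% to 0.851%) and 0.702% (0.691% to 0.714%) in NC and 1.36% (1.35% to 1.37%) and 0.940% (0.929% to 0.952%) in GAA, again without overlap, with a log2 fold change relative to miRNA reads (RPM recomputed with the summed miRNA reads as the total) of 0.56 (SE 0.24, adjusted p = 0.575). GAA-1 weighed heavily on both scales, since without this sample the log2 fold change was 0.69 in RPM and 0.29 relative to miRNA reads, against 1.38 and 0.83 without GAA-2. The intervals cover the counting of reads only and were much narrower than the distance between replicates.

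miR-99b-5p stood at 4820 (NC-1), 2821 (NC-2), 8448 (GAA-1) and 6779 (GAA-2) RPM. The NC samples were apart by more than any other guide's NC pair in RPM, and GAA lay above both. Its mean was 3820 ± 1414 RPM in NC and 7614 ± 1180 RPM in GAA (SD, n = 2 each), and limma gave a log2 fold change of 1.04 (SE 0.33, adjusted p = 0.272). Its share was 1.44% (NC-1) and 0.646% (NC-2) against 1.50% (GAA-1) and 1.35% (GAA-2). The shares overlapped, since NC-1 exceeded GAA-2. On this scale the log2 fold change of 0.56 (SE 0.33, adjusted p = 0.777) rested on NC-2, being -0.01 without this sample and 1.14 without NC-1.

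The passengers of this cluster were scarce. miR-125a-3p stood at 11.57 (NC-1), 9.932 (NC-2), 25.33 (GAA-1) and 20.86 (GAA-2) RPM, from 57, 47, 141 and 118 reads. GAA was above NC without overlap, with a log2 fold change of 1.03 (SE 0.21, limma, adjusted p = 0.205). Its shares did not overlap either, at 0.00345% and 0.00228% in NC and 0.00450% and 0.00414% in GAA. However, the Wilson interval of NC-1 (0.00266% to 0.00446%) overlapped those of GAA-1 (0.00381% to 0.00531%) and GAA-2 (0.00346% to 0.00496%). The intervals thus did not separate NC-1 from the GAA samples. Relative to miRNA reads its log2 fold change was 0.61 (SE 0.29, adjusted p = 0.639), or 0.32 without NC-2. miR-99b-3p stood at 27.21 and 29.79 RPM in NC and 53.00 and 44.72 RPM in GAA, from 134, 141, 295 and 253 reads. Again both GAA samples were above both NC samples, by 0.75 on the log2 scale (SE 0.18, limma, adjusted p = 0.217) in RPM and by 0.29 (SE 0.22, adjusted p = 0.781) relative to miRNA reads, or by 0.17 without NC-2. Its shares were 0.00810% and 0.00683% in NC and 0.00941% and 0.00887% in GAA. The Wilson intervals of NC-1 and NC-2 ended at 0.00960% and 0.00805%, and those of GAA-1 and GAA-2 began at 0.00840% and 0.00785%. Only the intervals of NC-2 and GAA-1 stood apart. Overlap of intervals does not by itself place a difference within counting error.

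miR-125b-5p, the guide made by both Mir125b hairpins, was the leading arm of the chromosome 9 and 16 clusters. It stood at 2223 (NC-1), 2597 (NC-2), 4491 (GAA-1) and 3293 (GAA-2) RPM. Its read numbers fell on multiples of 0.5 (10949.5, 12289.5, 24997 and 18629.5), whereas those of the other 8 arms were whole. GAA was above NC in RPM, at 3892 ± 847 against 2410 ± 264 RPM (SD, n = 2 each), a log2 fold change of 0.68 (SE 0.23, limma, adjusted p = 0.276). The shares, 0.662% and 0.595% in NC and 0.798% and 0.653% in GAA, overlapped, and the log2 fold change relative to miRNA reads was 0.20 (SE 0.20, adjusted p = 0.781), with a range from 0.06 without GAA-1 to 0.35 without GAA-2.

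The passengers told the Mir125b hairpins apart. miR-125b-1-3p, from chromosome 9, stood at 206.3 (NC-1), 213.4 (NC-2), 418.0 (GAA-1) and 369.9 (GAA-2) RPM. The NC samples lay close together and GAA was well above them, with a log2 fold change of 0.90 (SE 0.16, limma, adjusted p = 0.205). Its shares were 0.0614% and 0.0489% in NC and 0.0742% and 0.0734% in GAA, without overlap, and the log2 fold change relative to miRNA reads was 0.43 (SE 0.19, adjusted p = 0.621), or 0.26 without NC-2. miR-125b-2-3p, from chromosome 16, stood at 147.2 (NC-1), 123.2 (NC-2), 196.9 (GAA-1) and 157.8 (GAA-2) RPM. It had the smallest log2 fold change of the 9 arms, 0.39 (SE 0.20, limma, adjusted p = 0.385) in RPM, and -0.09 (SE 0.24, adjusted p = 0.908) relative to miRNA reads, where the NC samples (0.0438% and 0.0282%) enclosed the GAA samples (0.0350% and 0.0313%).

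The other guides of these clusters were less abundant. miR-100-5p, encoded beside Mir125b-1, stood at 395.1 (NC-1), 269.8 (NC-2), 542.9 (GAA-1) and 463.3 (GAA-2) RPM. GAA was above NC in RPM by 0.62 on the log2 scale (SE 0.25, limma, adjusted p = 0.298). By share, the NC samples (0.118% and 0.0618%) enclosed the GAA samples (0.0964% and 0.0919%), and the log2 fold change of 0.14 (SE 0.28, adjusted p = 0.877) was -0.32 without NC-2 and 0.61 without NC-1. miR-99a-5p, encoded beside Mirlet7c-1 and Mir125b-2, stood at 107.2 and 123.6 RPM in NC and 170.1 and 155.9 RPM in GAA, a log2 fold change of 0.50 (SE 0.17, limma, adjusted p = 0.274). Its share was 0.0319% (NC-1), 0.0283% (NC-2), 0.0302% (GAA-1) and 0.0309% (GAA-2), so that its groups were interleaved once the miRNA content of the samples was taken as the total, with a log2 fold change of 0.02 (SE 0.19, adjusted p = 0.952).

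With limma over all 869 miRNAs, no arm passed an adjusted p under 0.01 with a log2 fold change beyond 1, and no miRNA of the profile did (0%). The study, which used edgeR on read counts at these thresholds, reported differentially expressed miRNAs, among them miR-133a-3p and miR-1a-3p. That count model was not run here. At an unadjusted p under 0.05 there were 152 of the 869 miRNAs in RPM, 7 of the 9 arms among them. Relative to miRNA reads there were 70, with 1 of the 9 arms, miR-125a-5p. A fit in RPM of only the 323 miRNAs that reached 10 reads in all samples gave 110, with 6 of the 9 arms. The 7 arms in RPM became 1 without NC-2, 3 without GAA-1, and 4 without NC-1, without GAA-2 or with the replicate number as a block. In RPM both GAA samples lay above both NC samples for 9 of 9 arms, a pattern that 64.4% of the 323 miRNAs that reached 10 reads in all samples also had, while 2.79% had the opposite order. By share it held for 4 of 9 arms, namely miR-125a-5p, miR-125b-1-3p and, with overlapping counting intervals, miR-125a-3p and miR-99b-3p, against 22.9% of the 323, and the opposite order held for 0 of 9 against 19.8%. A log2 fold change above 1 in RPM was seen for 3 of 9 arms, all from chromosome 17, against 7.43% of the 323. These 3 values, 1.03 to 1.04, lay at the limit, and the count was 0 relative to miRNA reads. With any 1 sample left out the values in RPM ranged from 0.69 to 1.38 for miR-125a-5p, from 0.90 to 1.17 for miR-125a-3p and from 0.65 to 1.42 for miR-99b-5p. The median log2 fold change was 0.75 for the 9 arms and 0.49 for the 323 miRNAs in RPM, and 0.29 and 0.02 relative to miRNA reads. The arms share samples, hairpins and sequence and are not independent of each other.

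**Figure D2:**
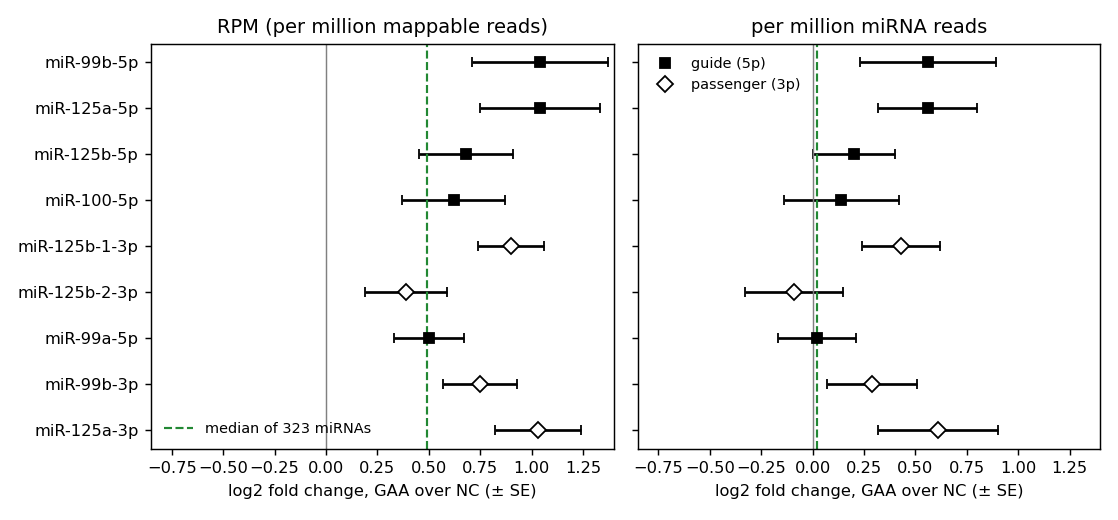
Log2 fold change of GAA over NC (limma, bars are ± 1 SE, 2 samples per group) for the 9 arms, in RPM on the left and relative to miRNA reads on the right, with guides as filled squares and passengers as open diamonds. The dashed line is the median of the 323 miRNAs that reached 10 reads in all samples, 0.49 on the left and 0.02 on the right, and miR-125b-2-3p lies left of it in both panels.

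Whether the chromosome 17 cluster and the other clusters moved alike was examined with sums over their arms. The arms of miR-125a and miR-99b summed to 7668 (NC-1), 5926 (NC-2), 16184 (GAA-1) and 11583 (GAA-2) RPM, a mean ratio of GAA over NC of 2.04. The arms of miR-125b, miR-99a and miR-100 summed to 3079, 3327, 5819 and 4440 RPM in the same order of samples, a ratio of 1.60. Both sums were higher in both GAA samples (exact permutation test, two-sided, p = 0.333 for each, the smallest that 2 samples against 2 can give). By share, the first sum stood at 2.28% and 1.36% in NC against 2.87% and 2.30% in GAA, without overlap but with NC-1 and GAA-2 almost level, and the second at 0.917% and 0.762% against 1.03% and 0.881%, with overlap (exact permutation test, p = 0.667). The difference in the first share, 0.766 points, was 0.303 without NC-2 and 1.23 without NC-1.

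The balance between the clusters does not depend on how reads are scaled. The miR-125a and miR-99b arms together held a part of the summed family of 71.3% (NC-1), 64.0% (NC-2), 73.6% (GAA-1) and 72.3% (GAA-2). The GAA samples were higher by 5.23 percentage points on average, about the SD of 5.17 between the NC samples (exact permutation test, p = 0.333), and the difference was 1.57 without NC-2 and 8.88 without NC-1. Among the miR-125 guides, miR-125a-5p made up 55.8% and 54.1% in NC and 63.0% and 59.0% in GAA. This difference of 6.04 points exceeded the SD of either group, 1.19 in NC and 2.85 in GAA (exact permutation test, p = 0.333). It ranged from 4.02 to 8.05 with any 1 sample left out. Among the miR-99 and miR-100 guides, miR-99b-5p made up 90.6% and 87.8% in NC and 92.2% and 91.6% in GAA, so it had more reads than its seed partners in every sample.

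Within the chromosome 17 cluster the order of the guides was not fixed. miR-99b-5p exceeded miR-125a-5p 1.72-fold in NC-1, 1.10-fold in GAA-1 and 1.43-fold in GAA-2, but in NC-2 the ratio was 0.920. Its part of both guides, 55.55% ± 10.8 in NC and 55.66% ± 4.53 in GAA (SD, n = 2 each), differed by less than the spread between samples. miR-125a-5p exceeded miR-125b-5p in all 4 samples, by 1.26-fold and 1.18-fold in NC and 1.71-fold and 1.44-fold in GAA. miR-100-5p exceeded miR-99a-5p by 2.18-fold to 3.69-fold, a range set by the NC samples, with the GAA samples inside it. Reads were compared between miRNAs without a correction for length, since the mature arms differ by at most 2 bases. Whether arms of different sequence yield reads equally well was not tested. Comparisons between arms are therefore of reads and may not hold for molecules.

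The strands of the hairpins were then compared, and guides made up 95.9% to 96.8% of the family in every sample. The part of the passenger, counted in reads, differed strongly between hairpins. miR-125a-3p was 0.410% and 0.323% of both miR-125a arms in NC and 0.330% and 0.438% in GAA. miR-99b-3p was 0.561% and 1.05% of both miR-99b arms in NC and 0.623% and 0.655% in GAA, a little more than that of miR-125a. The passengers of miR-125b together made up 13.7% and 11.5% in NC and 12.0% and 13.8% in GAA. The passengers of miR-125b thus held over 10 percentage points more of their pair than those of miR-125a and miR-99b in every sample, a gap far wider than the spread between replicates. None of these 3 parts separated NC from GAA (two-sided exact permutation p = 0.667 for miR-125a, 1.0 for miR-99b and 0.667 for miR-125b). The guide and passenger of miR-125a showed almost the same log2 fold change, 1.04 and 1.03 in RPM.

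The other arms of miR-99a and miR-100 were not among the 9 but came from a list of relatives. miR-99a-3p was 8.33% and 11.0% of both miR-99a arms in NC and 7.34% and 5.47% in GAA, from 48, 72, 75 and 51 reads. Both GAA samples were lower, by -3.24 points on average (exact permutation test, p = 0.333). With any 1 sample left out the difference ranged from -4.56 to -1.93 points. NC-1 and GAA-1 lay close together for so few reads, and no counting interval was computed for this part. miR-100-3p, at 5 to 9 reads a sample, was 0.256% and 0.468% of both miR-100 arms in NC and 0.297% and 0.304% in GAA, which at this depth could not be told apart.

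The miR-125b passengers gave a further split between hairpins, a comparison chosen after their values were seen. The part of miR-125b-1-3p in both passengers was 58.4% (NC-1), 63.4% (NC-2), 68.0% (GAA-1) and 70.1% (GAA-2). The GAA samples were higher by 8.16 percentage points, more than the SD of 3.57 in NC and 1.49 in GAA (exact permutation test, p = 0.333), and by 5.64 to 10.7 points with any 1 sample left out. The guides encoded beside them did not separate in this way, since miR-100-5p made up 78.7% and 68.6% of miR-99a-5p plus miR-100-5p in NC and 76.1% and 74.8% in GAA.

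**Figure D3:**
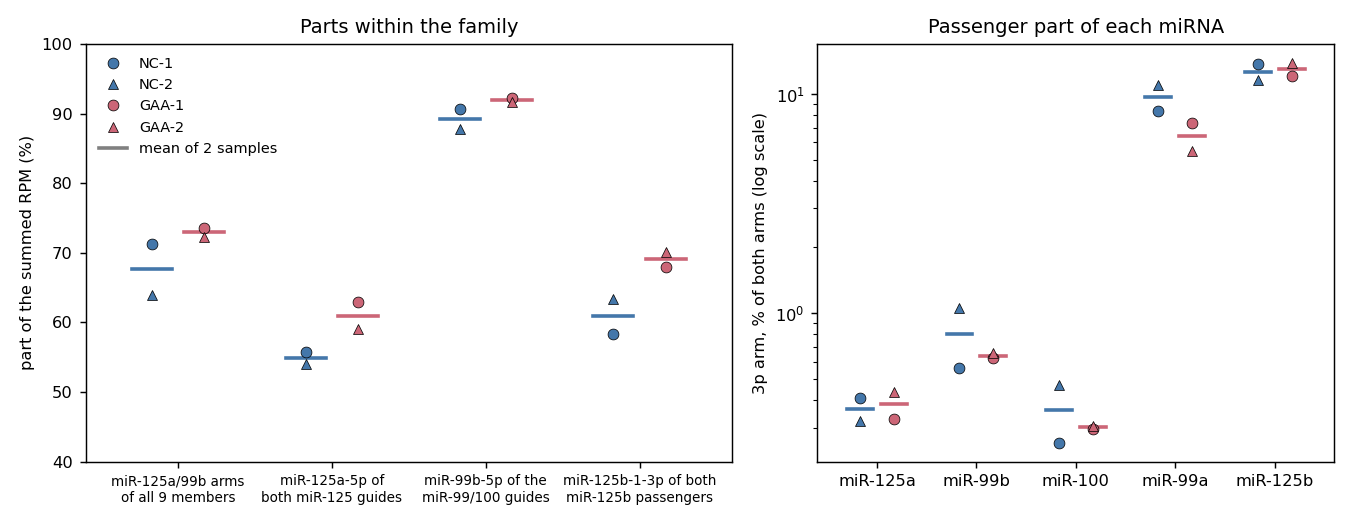
Parts of summed RPM per sample (symbols as in the plot of levels, bars at the mean of 2 samples): on the left the part of the chromosome 17 arms, of miR-125a-5p, of miR-99b-5p and of miR-125b-1-3p within their sets and on the right the passenger part of each miRNA on a log axis. On the left GAA lies above NC in each set, with 71.3% in NC-1 and 72.3% in GAA-2 the nearest samples for the chromosome 17 arms, while on the right the groups overlap for all but miR-99a.

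The let-7 neighbors and seed relatives in a list of 14 miRNAs were read beside the family, and 0 of the 14 passed the limma thresholds in either direction. let-7e-5p, which lies between Mir99b and Mir125a, stood at 385.2 and 539.1 RPM in NC and 620.5 and 720.3 RPM in GAA. Its log2 fold change was 0.55 (SE 0.23, limma, adjusted p = 0.316) in RPM and 0.08 (SE 0.20, adjusted p = 0.905) relative to miRNA reads. let-7e-3p, from the same hairpin, stood at 7.310 and 9.720 RPM in NC and 19.40 and 12.73 RPM in GAA. Its log2 fold changes of 0.83 (SE 0.30, adjusted p = 0.280) and 0.41 (SE 0.29, adjusted p = 0.781) lay within the range of the family arms of this cluster on both scales, and both GAA samples were above both NC samples by share. let-7c-5p, made by Mirlet7c-1 and by a hairpin on chromosome 15, stood at 3344 and 5021 RPM in NC and 3794 and 4382 RPM in GAA. It overlapped in RPM, and by share both GAA samples were lower, with a log2 fold change of -0.48 (SE 0.22, adjusted p = 0.621). let-7a-5p had log2 fold changes of 0.46 (SE 0.27) and -0.02 (SE 0.21) on these scales. The arms that mark single let-7 hairpins, let-7a-2-3p and let-7c-1-3p, had 2 to 8 and 3 to 15 reads. let-7a-1-3p and let-7c-2-3p have identical sequences and identical deposited values, so they are 1 measurement.

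**Figure D4:**
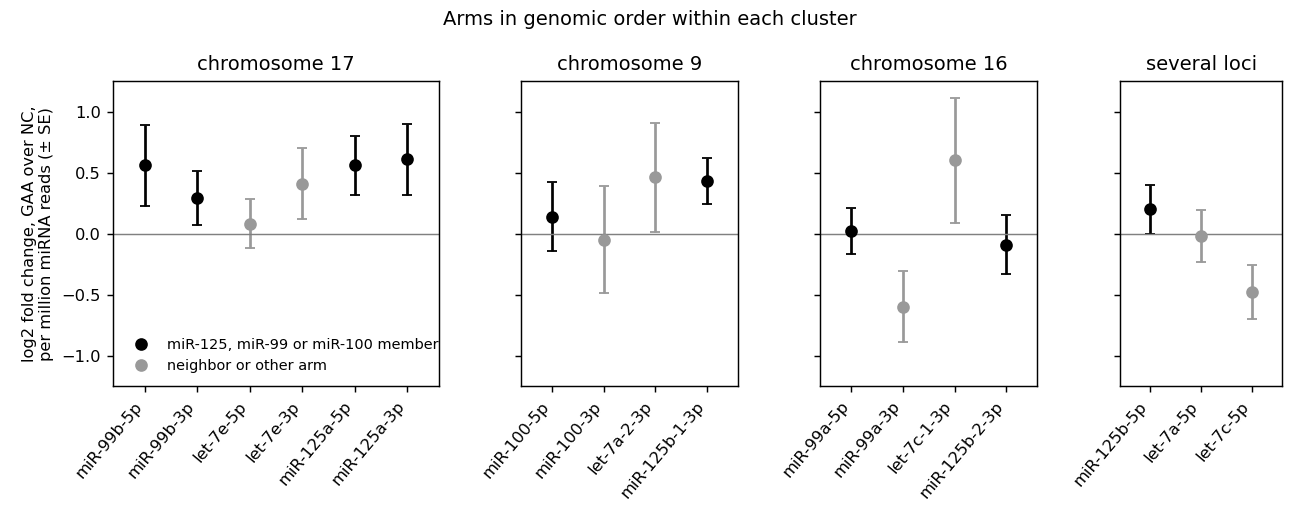
Log2 fold change of GAA over NC relative to miRNA reads (limma, ± 1 SE, 2 samples per group) for the arms of each cluster in genomic order, with the family in black and let-7 neighbors and other arms in grey, and guides made by several hairpins in the last panel. On chromosome 17 the 4 family arms lie between 0.29 and 0.61 and let-7e-5p at 0.08. On chromosome 9 miR-125b-1-3p and miR-100-5p lie at 0.43 and 0.14, and on chromosome 16 miR-99a-5p and miR-125b-2-3p at 0.02 and -0.09. The SEs of these arms are 0.19 to 0.33.

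The seed families were also summed over every detected miRNA with that seed. The miR-125 seed occurs in 5 mature mouse miRNAs of the RefSeq table, of which miR-125a-5p, miR-125b-5p and miR-351-5p were detected. Together they reached 6171 (NC-1), 7295 (NC-2), 14330 (GAA-1) and 9290 (GAA-2) RPM. By share this was 1.84% and 1.67% in NC and 2.54% and 1.84% in GAA, so GAA-2 and NC-1 were level. miR-351-5p, from an X-linked cluster, gave 18.4% and 22.4% of this sum in NC and 15.2% and 13.6% in GAA, and its own levels overlapped between groups (1139 and 1633 RPM against 2182 and 1259 RPM). The miR-99 and miR-100 seed was found in the 3 guides shown above and in no other miRNA of the table, and these summed to 1.58% and 0.736% of the miRNA RPM in NC and 1.63% and 1.47% in GAA. miR-10a-5p and miR-10b-5p, whose sequence resembles miR-100-5p but has a different seed, had log2 fold changes of 0.48 (SE 0.39) and -0.03 (SE 0.31) in RPM. Relative to miRNA reads these were 0.00 (SE 0.23) and -0.50 (SE 0.25).

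Outside the family and its relatives, 170 miRNAs reached 100 reads in all samples. Likeness to a cluster sum was measured as the root mean square difference of centred log2(RPM + 1) values over the 4 samples. The chromosome 17 sum was most like miR-151-3p (0.13), miR-423-3p (0.13) and miR-130b-3p (0.15). miR-151-3p stood at 1948 and 1845 RPM in NC and at 4133 and 3381 RPM in GAA. The sum of the other clusters was most like let-7d-3p (0.043), miR-743b-3p (0.046) and miR-23b-3p (0.051). let-7d-3p stood at 153.9 and 166.5 RPM in NC and at 279.2 and 231.7 RPM in GAA. With 4 samples these are descriptions of profile shape only.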

How the data were processed

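Small RNA libraries from 2 NC and 2 GAA samples of C2C12 myotubes were analysed. Groups and replicate numbers came from the sample titles. Per the methods of the study, the authors removed adaptors, low-quality reads, repeated sequences and reads outside their size range, mapped the clean reads to GRCm38 and matched them to miRBase 21.0 with miRDeep2. The authors deposited log2(RPM + 1), with the mappable reads of a sample as the total of RPM, and a miRNA without a row in a sample was set to 0. The deposited column, headed log(rpm)+1, was read as log2(RPM + 1), and the RPM of 1 read was inferred from the low values. In every sample at least 95.4% of the values were whole multiples of 1 read (within 0.01), which gave the reads behind each value. The miRNA reads numbered 1653803 and 2065461 in NC and 3134241 and 2850828 in GAA, and 3 reads correspond to 0.530 to 0.634 RPM.

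The limma package (version 3.58.1, R 4.3.3) was used with a mean-variance trend, condition as the only term, a pseudocount of 1 RPM and no filter over 869 miRNAs, with Benjamini-Hochberg adjustment. A call took a change beyond 1 on the log2 scale in either direction at an adjusted p below 0.01, the study's thresholds. The recovered reads served for intervals and filters, and the count model of the study was not used. Single values were compared with two-sided exact permutation tests, and shares carry 95% Wilson intervals. PCR reads are not independent molecules, so intervals cover counting error only. The fit was tested on simulated data. Alternatives were other divisors, a pseudocount of 0.1 RPM, filters, eBayes without a trend, the replicate number as a block and each sample left out.

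The arms, the 14 relatives and the marker lists were chosen with earlier results of these data known. Named were all 9 arms, the relatives and, for each cluster sum, the 3 most similar miRNAs of those reaching 100 reads in all samples. Sequences and positions came from RefSeq (GRCm38.p6) and GENCODE M21. No batch or date was given in the labels. Figures were drawn with matplotlib 3.10.9.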

Additional observations from a re-analysis of the deposited data

How the results depend on the processing

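The divisor moved the cluster sums, while the parts within the family do not depend on it. The log2 difference of the summed miR-125a and miR-99b arms was 1.02 in RPM, 0.55 with the miRNA reads as divisor, 0.63 with the miRNA reads without the 5 most abundant miRNAs, 0.56 without the 9 arms and 0.49 with median-of-ratios factors. For the summed miR-125b, miR-99a and miR-100 arms it was 0.67, 0.19, 0.28, 0.20 and 0.14 in the same order. With each sample left out these RPM differences ranged from 0.78 to 1.26 and from 0.47 to 0.86. The number of miRNAs called rose from 0 to 1 under each of these divisors (miR-208b-3p, lower in GAA, singled out after its values were seen), and the number of arms called was 0 under every alternative, an adjusted p limit of 0.05 without a fold limit included. miR-125b-2-3p turned negative, at -0.09, -0.0020, -0.07 and -0.14 under these divisors, and miR-99a-5p at -0.03 with median-of-ratios factors.

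Leaving out 1 sample with division by miRNA reads was added after seeing the data. Without NC-2, 5 of 9 arms kept a positive log2 fold change, with miR-125b-2-3p at -0.40, miR-100-5p at -0.32, miR-99a-5p at -0.06 and miR-99b-5p at -0.01. miR-125b-2-3p was also negative without GAA-1 (-0.17) and without GAA-2 (-0.01). With 1 sample left out the differences in passenger part took either sign, from -0.0369 to 0.0716 points for miR-125a, -0.406 to 0.0780 for miR-99b and -0.790 to 1.45 for miR-125b. The cause of these changes was not tested. With 1 sample left out, the spread of a group of 1 came from the other group alone.

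Samples with the same replicate number were not shown to be pairs. The deviations of replicate 1 in NC and GAA had a correlation of -0.149 across 323 miRNAs, which are not independent. The replicate block gave 0 calls, and with division by miRNA reads it gave 6 calls, none of them an arm of the family, with miR-125b-2-3p at -0.09. It changed no other call. At this depth the arms with fewest reads, miR-125a-3p and miR-99b-3p, carry the widest counting intervals relative to their values.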
